A study of Mus musculus with 8 samples.

Results

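Serpins, Spink proteins and kallikreins, 3 families that act on or as serine proteases, were followed across thymic epithelial cells (TECs) of E17 mouse embryos. Members were chosen by symbol: every gene of the deposited table named Serpin, Spink or Klk with a family letter or number, leaving out 16 symbols marked as pseudogenes. This gave 101 of 55450 genes, comprising 63 serpins, 12 Spinks and 26 kallikreins. GENCODE annotates 99 of them as protein-coding, Serpina3h as a transcribed pseudogene and Serpinb10 as a polymorphic pseudogene. The families were selected on earlier results of these same libraries, in which Spink8 was among the largest differences between CCL21-expressing and RANK-expressing TECs. The folds and calls below therefore describe these libraries and are not independent support for a change of the families.

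All cells were CD45-EpCAM+ and carried the same pair of reporters, a tdTomato knock-in at Ccl21a and a Venus transgene for RANK (Tnfrsf11a). They were sorted into CCL21+RANK- (tdTomato+Venus-, n = 3 libraries), CCL21-RANK+ (tdTomato-Venus+, n = 3) and CCL21-RANK- TECs (negative for both, n = 2), named CCL21+, RANK+ and double-negative TECs from here on. CCL21 is the chemokine that draws thymocytes to the medulla, and RANK is the receptor through which medullary TECs (mTECs) develop Aire-expressing cells. The comparison of the first pair of populations asked how far CCL21-expressing and RANK-expressing mTECs differ. Whether replicates came from separate litters or pools is not stated, so p-values measure the spread between these libraries. Library totals were 59677342, 46003149 and 55116934 counts in CCL21+, 57286773, 50146758 and 42751858 counts in RANK+, and 67451448 and 71625319 counts in double-negative TECs. The gate was set on the reporters, and CCL21- does not mean that the transcript was absent. Ccl21a averaged 404 ± 137 RPKM (counts scaled by exon length and library total; SD, n = 3) in CCL21+, 109 ± 38.4 in RANK+ and 7.89 ± 1.41 (n = 2) in double-negative TECs. It was lower in RANK+ than in CCL21+ TECs but higher than in double-negative TECs, by 3.66 ± 0.35 on the log2 scale (adjusted p = 2.49e-05, edgeR). Tnfrsf11a averaged 9.50 ± 0.75, 104 ± 9.37 and 2.44 ± 0.258 RPKM in the same order. All 9 epithelial marker genes examined were above 0 in every library, with Krt8 or Krt18 the most abundant. They summed to 4944, 4870 and 5597 RPKM in CCL21+, 1996, 2113 and 1771 RPKM in RANK+, and 4330 and 4630 RPKM in double-negative TECs. Between CCL21+ and RANK+, 5 were called lower in RANK+ (Krt8, Krt18, Krt5, Foxn1 and Psmb11) and 2 higher (Aire and Epcam), against 15.4% of all genes each way.

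Serpins are suicide inhibitors: a protease cleaves the exposed reactive loop and is trapped in a covalent complex, although some members have lost this activity and act as chaperones or hormone carriers. Clade A serpins are mostly secreted plasma proteins, whereas clade B serpins lack a classical signal peptide and act largely inside cells. Spink proteins carry Kazal domains that plug the active site of trypsin-like proteases. Kallikreins are secreted serine proteases encoded side by side, best known from the shedding of the skin surface, where Spink5 (LEKTI) restrains several of them. In the thymus, mature mTECs are known for transcribing many genes that otherwise belong to single peripheral tissues.

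A pair of libraries stood apart for other reasons and bear on the values below. RANK+ replicate 1 was the highest of the 3 RANK+ libraries for 63 of the 74 members that passed the expression filter (85.1%), against 49.6% of all 21451 genes tested. It also had the highest sums of myeloid, fibroblast, B cell, thymocyte and endothelial markers, although the CD45-EpCAM+ gate selects against these cells. Ptprc, which encodes CD45, was at 0.576, 0.177 and 0.422 RPKM in RANK+ and at most 0.193 RPKM elsewhere. The 10 myeloid markers, led by Lyz2, summed to 82.4 RPKM in it and to 23.4 and 28.6 RPKM in the other RANK+ libraries, against 1.49, 0.604 and 0.349 RPKM in CCL21+ and 0.63 and 0.491 RPKM in double-negative TECs. Of these 10 markers, 7 were called higher in RANK+ than in CCL21+ TECs (15.4% of all genes). The 8 fibroblast markers, led by Col1a1 or Dcn, summed to 53.4, 27.9 and 33.6 RPKM in RANK+ and to at most 4.64 RPKM in the 5 other libraries. Of these 8 markers, 5 were called higher in RANK+, whereas Postn was called higher in CCL21+ TECs (15.4% of all genes each way). The 5 B cell markers, led by Cd79b, summed to 11.4, 5.71 and 6.47 RPKM in RANK+ and to at most 0.904 RPKM elsewhere. Of 10 thymocyte markers 2, of 6 endothelial markers 1 and of 5 erythroid markers 1 were called higher in RANK+ than in CCL21+ TECs, near the share of all genes (15.4%). Against double-negative TECs, 5 thymocyte markers and 1 endothelial marker were called higher in RANK+ (14.4% of all genes). Thymocyte markers summed to 22.5, 10.1 and 18.8 RPKM in RANK+, 12.6, 5.37 and 7.22 RPKM in CCL21+, and 3.91 and 3.45 RPKM in double-negative TECs. Endothelial markers summed to 4.25, 2.36 and 1.9 RPKM in RANK+ and to at most 0.467 RPKM elsewhere. Erythroid markers did not follow replicate 1: they summed to 141, 232 and 238 RPKM in RANK+, 5.45, 130 and 44.0 RPKM in CCL21+, and 365 and 44.8 RPKM in double-negative TECs. No myeloid, fibroblast or B cell marker was at 0 in a RANK+ library. CCL21+ replicate 1 was the richest in parathyroid transcripts: the 4 markers Chga, Pth, Casr and Gcm2 summed to 7122, 1750 and 1955 RPKM in CCL21+ and to 24.9 RPKM or less in the other populations. The part of other cells in the results below was not tested. Values without 1 library are given for some of the calls that it moved, but the libraries that remain hold these markers too. In sorted bulk RNA, fewer cells of a type and less RNA per cell cannot be told apart.

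More members were detected in RANK+ TECs than elsewhere. Over 3 counts were present for 93, 74 and 74 of the 101 members in RANK+, but for 32, 30 and 32 in CCL21+ and for 33 and 36 in double-negative TECs. As a share of all genes, over 3 counts were present for 34.3 to 35.7% in the 5 RANK-negative libraries and for 44.0, 40.1 and 40.6% in RANK+ TECs. Over 3 counts in every RANK+ library and at most 3 in each other library were found for 22 of the 95 members detected anywhere (23.2%), against 5.1% of all genes detected anywhere. Kallikreins supplied 12 of these 22. The remaining 10 were Serpina11, Serpina12, Serpina1e, Serpina3k, Serpinb13, Serpinb2, Serpinb9c, Serpinb9g, Spink10 and Spink4. At the other extreme, 24 members had over 3 counts in all 8 libraries, 23 of them serpins and the other Klk8. No count was seen for Serpina16, Serpina1d, Serpina1f, Serpinb3b or Spink11, and Serpini2 never exceeded 3 counts. In level, 41 members averaged over 1 RPKM in RANK+, 15 in CCL21+ and 12 in double-negative TECs, and 58 did so in no population. Over 1 RPKM in at least 1 population was reached by 42.6% of members and 24.8% of all genes. The summed serpin level differed less, at 328, 295 and 260 RPKM in CCL21+, RANK+ and double-negative TECs, with Serpinh1 and Serpina3g making up 66.1, 41.6 and 72.0% of it.

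**Figure D1:**
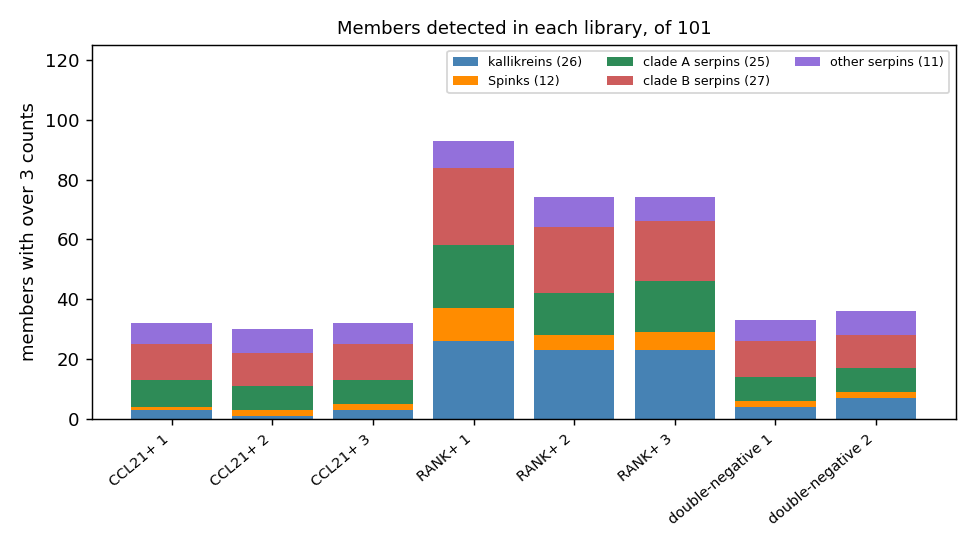
Number of members with over 3 counts (y axis) in each of the 8 libraries (x axis), stacked by family, with the size of each family in the legend. RANK+ libraries held 93, 74 and 74 of 101 members and the other libraries 30 to 36.

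The expression filter left 74 members for testing. Of the 27 not tested, 22 had counts, all of them highest in a RANK+ library and 19 in replicate 1. Their highest count was 105, against at most 2 outside RANK+, and no mean passed 0.513 RPKM. Among those tested, 29 had at most 3 counts in every library outside RANK+ and passed through that population alone, so shares over the tested members are descriptions. A call required an adjusted p under 0.05 in edgeR, a fold over 1.5 and a mean over 1 RPKM in the higher population.

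Between CCL21+ and RANK+ TECs, 30 members were called higher in RANK+ and 7 higher in CCL21+. Of all genes tested, 15.4% were called higher in RANK+ and 15.4% higher in CCL21+. The median log2 fold change of the 74 members was -5.38, against -0.11 over all genes. The 30 comprised 13 kallikreins, 10 clade B serpins, 4 clade A serpins, Serpinc1, Serpini1 and Spink5. The 7 were Serpinh1, Serpinf1, Serpine2, Serping1, Serpina3i, Serpina3n and Spink8. Between RANK+ and double-negative TECs, 32 members were called higher in RANK+ (14.4% of all genes) and 3 higher in double-negative (15.1% of all genes), namely Serpinh1, Serpinf1 and Serpine2. Between CCL21+ and double-negative TECs, 9 members were called higher in CCL21+ (4.35% of all genes). None was called higher in double-negative in edgeR (3.66% of all genes) or in DESeq2, although 3 had an unadjusted p under 0.05 in that direction. The 3 comparisons share libraries pairwise, so their counts are not independent. Counting levels without the model, all 3 RANK+ libraries lay above the other 5 for 49 of the 74 tested members (66.2%) and of all genes for 30.5%, and below the other 5 for 4 members (5.41%) and of all genes for 18.4%. These 4 were Serpinh1, Serpinf1, Serpine2 and Spink8. Without RANK+ replicate 1, the 30 calls against CCL21+ became 18 (14.7% of all genes) and the 32 against double-negative became 19 (13.5% of all genes), with 58 members tested, while Serpinh1 and Serpinf1 kept their calls in both comparisons and Spink8 kept its own.

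**Figure D2:**
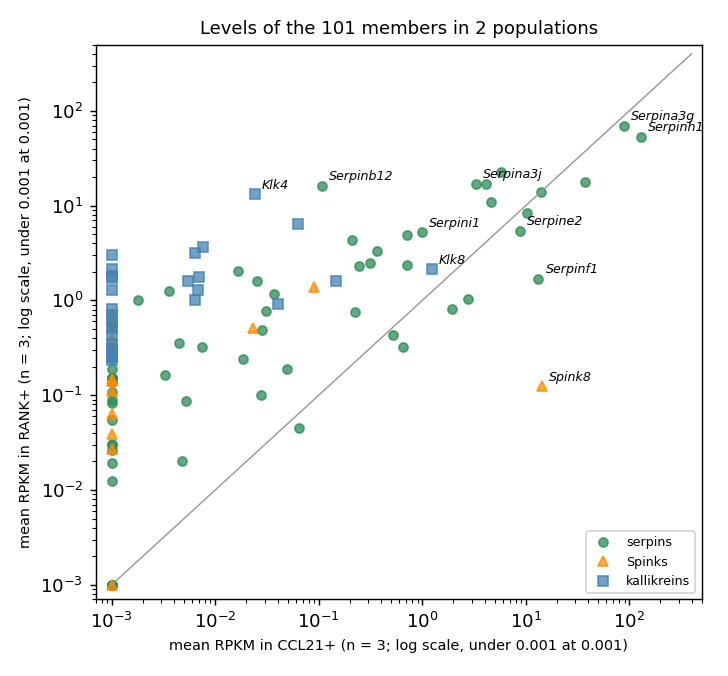
Mean RPKM of each of the 101 members in CCL21+ (x axis, n = 3) against RANK+ TECs (y axis, n = 3), both on log scales with means under 0.001 drawn at 0.001, as circles (serpins), triangles (Spinks) and squares (kallikreins), with the line of equal levels. Most members lie above the line, several kallikreins on its left edge had no counts in CCL21+ TECs, and Spink8, Serpinf1 and Serpinh1 lie below it.

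The most abundant member in CCL21+ and double-negative TECs was not a protease inhibitor, whereas in RANK+ TECs it was Serpina3g. Serpinh1 (HSP47), the collagen chaperone of the endoplasmic reticulum, was at 130, 119 and 137 RPKM in CCL21+, 46.1, 58.0 and 55.5 RPKM in RANK+, and 149 and 167 RPKM in double-negative TECs. The RANK+ libraries were the 3 lowest and did not overlap the others. The log2 fold change (± SE) was 1.38 ± 0.13 for CCL21+ over RANK+ (adjusted p = 1.67e-05, edgeR) and -1.68 ± 0.14 for RANK+ over double-negative TECs (adjusted p = 1.04e-05). The part of fibroblasts, cells that also make collagen, in the level of Serpinh1 was not tested, and the summed fibroblast markers were highest in RANK+ TECs.

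Serpinf1 (PEDF) is a secreted serpin without inhibitory activity that restrains blood vessel growth. It showed the widest gap of the 3 members called lower in RANK+ than in both other populations. It was at 15.1, 10.8 and 13.8 RPKM in CCL21+, 1.56, 2.38 and 1.13 RPKM in RANK+, and 20.7 and 24.7 RPKM in double-negative TECs. Again the RANK+ libraries lay below all others, with a log2 fold change of 3.07 ± 0.26 for CCL21+ over RANK+ (adjusted p = 8.5e-06) and of -3.85 ± 0.27 for RANK+ over double-negative (adjusted p = 4.31e-06). Between the RANK-negative populations the difference of -0.78 ± 0.25 did not pass (adjusted p = 0.0821, edgeR). It passed at -0.76 to -0.78 without a filter on low counts (adjusted p = 0.012), in a fit of these libraries alone (adjusted p = 0.00457), and without RANK+ replicate 2 or 3 (adjusted p = 0.0145 and 0.0435). Serpine2 (protease nexin-1), which inhibits thrombin and plasminogen activators, was at 8.30, 9.08 and 8.88 RPKM in CCL21+, 3.97, 6.41 and 5.98 RPKM in RANK+, and 10.6 and 13.2 RPKM in double-negative TECs. The groups were in the same order as for Serpinf1 but closer together, with 0.79 ± 0.19 for CCL21+ over RANK+ (adjusted p = 0.00598). Without RANK+ replicate 1, this difference was 0.58 and fell under the fold threshold.

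Other serpins outside clades A and B had other orders. Serpinc1 (antithrombin), the main plasma inhibitor of thrombin, was at 0.204, 0.231 and 0.191 RPKM in CCL21+, 3.99, 4.29 and 4.63 RPKM in RANK+, and 0.123 and 0.0817 RPKM in double-negative TECs. Its RANK+ libraries stood well above the rest and close together, with replicate 1 the lowest of them. The log2 fold change was -4.24 ± 0.23 for CCL21+ over RANK+ (adjusted p = 9.08e-07, edgeR). Serpini1 (neuroserpin), an inhibitor of tissue plasminogen activator known from neurons, was at 0.819, 1.09 and 1.06 RPKM in CCL21+, 4.84, 5.40 and 5.55 RPKM in RANK+, and 0.273 and 0.395 RPKM in double-negative TECs. It was likewise lowest in replicate 1 within RANK+, and differed by -2.29 ± 0.18 between CCL21+ and RANK+ (adjusted p = 6.15e-06). Serping1, the C1 inhibitor of complement, was at 1.85, 1.62 and 2.35 RPKM in CCL21+, 1.04, 0.386 and 1.02 RPKM in RANK+, and 0.191 and 0.709 RPKM in double-negative TECs. The CCL21+ libraries were highest without overlap, but the call (1.38 ± 0.49, adjusted p = 0.0385) was lost with a replicate block (adjusted p = 0.0552), with DESeq2 size factors (adjusted p = 0.055) and without any 1 of 5 libraries, at 0.0661 to 0.107. Serpind1 (heparin cofactor II) was not tested and had counts in RANK+ TECs alone, at a mean of 0.151 ± 0.182 RPKM.

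The Serpina3 genes of chromosome 12, a rodent expansion of the antichymotrypsin gene, held most of the clade A signal. Serpina3g alone made up 62.1% of the summed clade A RPKM in CCL21+, 56.3% in RANK+ and 63.3% in double-negative TECs. Serpina3g, an intracellular inhibitor of cathepsins in T cells, was at 95.4, 87.3 and 83.2 RPKM in CCL21+, 69.8, 69.4 and 69.4 RPKM in RANK+, and 26.1 and 32.7 RPKM in double-negative TECs. The 3 populations did not overlap. Its difference between the reporter-positive populations passed the test but not the fold threshold (0.47 ± 0.11, adjusted p = 0.00535), whereas it was 1.60 ± 0.13 higher in CCL21+ (adjusted p = 0.00014) and 1.13 ± 0.13 higher in RANK+ (adjusted p = 7.81e-05) than in double-negative TECs.

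Some neighbours of Serpina3g differed from it. Serpina3i was at 39.5, 36.9 and 34.8 RPKM in CCL21+, 15.3, 19.5 and 18.1 RPKM in RANK+, and 13.4 and 15.8 RPKM in double-negative TECs, so that it stood out in CCL21+ alone (1.19 ± 0.14 over RANK+, adjusted p = 8.61e-05). Serpina3h averaged 10.2 ± 0.914 RPKM in CCL21+, 8.32 ± 1.75 in RANK+ and 2.04 ± 0.0459 in double-negative TECs, an order like that of Serpina3g. Serpina3j was at 3.74, 3.69 and 2.54 RPKM in CCL21+, 21.6, 15.2 and 14.6 RPKM in RANK+, and 0.0482 and 0.0713 RPKM in double-negative TECs. All 3 populations were separate for Serpina3j, with RANK+ on top (-2.22 ± 0.22 for CCL21+ over RANK+, adjusted p = 2.54e-05) and CCL21+ far above double-negative (5.79 ± 0.36, adjusted p = 5.62e-05). Serpina3f averaged 0.362 ± 0.297, 3.30 ± 0.753 and 0.112 ± 0.0486 RPKM in the 3 populations in the same order, and Serpina3n 2.75 ± 1.80, 1.03 ± 0.473 and 0.150 ± 0.00843 RPKM. Serpina3n was highest in CCL21+ replicate 1, at 4.77 RPKM against 2.15 and 1.33 in the other CCL21+ libraries, and without it the mean was 1.74 RPKM and the call over RANK+ was lost (0.91, adjusted p = 0.142, edgeR). That call was also lost without CCL21+ replicate 2 or RANK+ replicate 2 or 3 (adjusted p = 0.0509 to 0.101). The counts of Serpina3f, Serpina3g, Serpina3h and Serpina3i were not whole numbers (to within 1e-06) in any of the 8 libraries, because reads that match more than 1 gene were divided among them, so the split within this quartet is uncertain. Serpina3j had whole counts throughout.

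Elsewhere in clade A, levels were low. Serpina9 (centerin), known from germinal centre B cells, averaged 2.29 ± 0.919 RPKM in RANK+ against 0.247 ± 0.13 in CCL21+ TECs (-3.04 ± 0.60, adjusted p = 0.00209, edgeR), in the libraries in which B cell markers were also highest. Serpina12 (vaspin), an inhibitor of Klk7 known from fat and skin, was at 0, 0.00589 and 0.00492 RPKM in CCL21+, 2.22, 0.827 and 0.704 RPKM in RANK+, and 0 in both double-negative libraries. Its call was lost without RANK+ replicate 1. RANK+ replicates 2 and 3 were under the RPKM threshold but far above the CCL21+ and double-negative libraries. The alpha-1 antitrypsin genes Serpina1a to Serpina1e, a hallmark of liver, did not exceed 1.25 RPKM in any library, that value being Serpina1e in RANK+ replicate 1. These near-identical copies share sequence, and their separate values are uncertain.

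**Figure D3:**
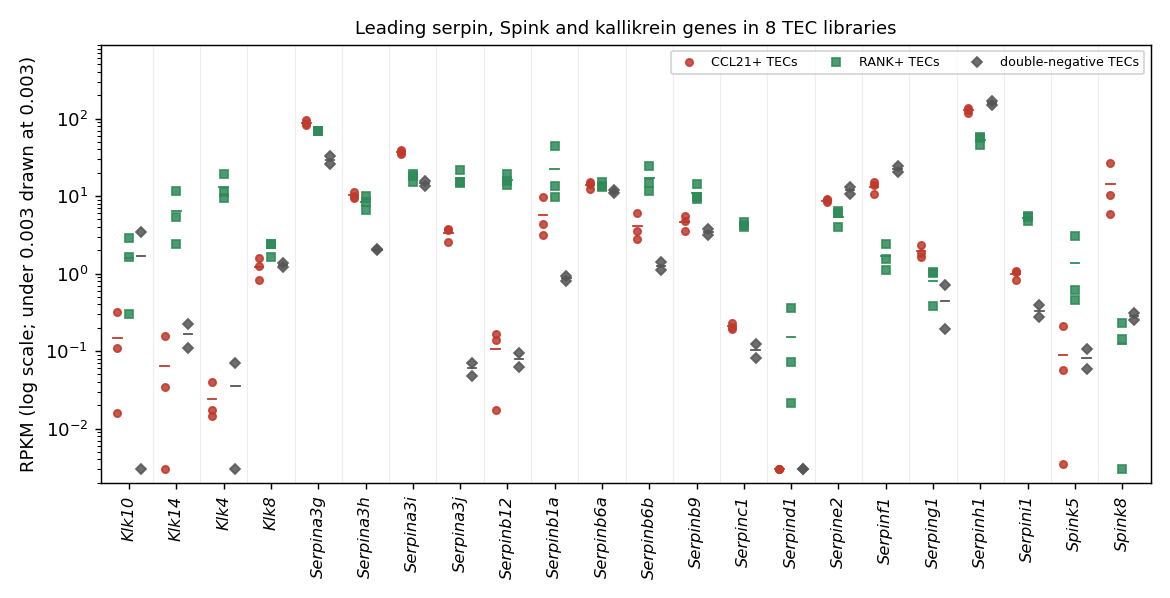
RPKM (log scale, values under 0.003 drawn at 0.003) of the 22 members named by the rule on level and calls, with 1 point per library for CCL21+ (circles), RANK+ (squares) and double-negative TECs (diamonds) and a dash at each mean. Serpinh1, Serpinf1, Serpine2 and Spink8 have their squares below the other points, whereas Klk4, Klk14, Serpinb12, Serpinc1 and Serpini1 have them above.

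Clade B serpins lie in 2 blocks, 12 genes on chromosome 1 and 15 on chromosome 13. On chromosome 1, 6 were called higher in RANK+ than in CCL21+ TECs (15.4% of all genes). Across both blocks none was called lower in edgeR or DESeq2, and 1, Serpinb5, had an unadjusted p under 0.05 in that direction. Serpinb12, an inhibitor of trypsin-like proteases found in epithelia, was at 0.168, 0.0174 and 0.138 RPKM in CCL21+, 19.3, 15.6 and 13.9 RPKM in RANK+, and 0.0950 and 0.0615 RPKM in double-negative TECs. Its RANK+ libraries were even and far above the rest (-7.06 ± 0.44 for CCL21+ over RANK+, adjusted p = 1.7e-06; 7.56 ± 0.54 for RANK+ over double-negative, adjusted p = 4.35e-06). The other 5 called here were Serpinb11, Serpinb10, Serpinb2 (PAI-2, an inhibitor of urokinase), Serpinb3c and Serpinb7, with means of 4.88 ± 3.39, 2.46 ± 0.712, 2.02 ± 1.81, 1.61 ± 0.476 and 1.16 ± 0.878 RPKM in RANK+ and of 0.0166 to 0.708 RPKM in CCL21+ TECs. Serpinb2 and Serpinb10 share sequence and had counts that were not whole in 4 libraries each, so the split between them is uncertain. Serpinb2 and Serpinb7 lost their calls without RANK+ replicate 1, whereas Serpinb10, Serpinb11, Serpinb12 and Serpinb3c kept them. In RANK+ replicates 2 and 3, Serpinb2 was at 0.768 and 1.2 RPKM and Serpinb7 at 0.56 and 0.753 RPKM. Their CCL21+ means were 0.0166 and 0.037 RPKM. Serpinb5 (maspin), at the start of the block, did not follow: it averaged 0.656 ± 0.156 RPKM in CCL21+, 0.321 ± 0.164 in RANK+ and 0.297 ± 0.0681 in double-negative TECs (1.16 ± 0.49 for CCL21+ over RANK+, adjusted p = 0.0693, edgeR).

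Promoters of the chromosome 1 block are shown because they hold a shared element. The choice of members did not use it, but the block and the element were picked for display from the search described next. The counts below are therefore descriptions. RefSeq promoters of build GRCm38.p6, from 250 bases before to 50 bases after each start site, matched 80 of the 101 members, with 93 promoters. Among 7 motifs searched on both strands, the AP-1 element TGANTCA was found for 7 of 11 genes of this block (63.6%), 0 of 14 clade B genes on chromosome 13, 4 of 18 clade A genes on chromosome 12 (the Serpina1 copies), 0 of 26 kallikreins, and 8.97% of all 27025 genes. The TATA motif TATAAA was also found for 7 of these 11 genes (63.6%), against 14.3% of the clade B genes on chromosome 13, 3.85% of kallikreins and 15.7% of all genes. The GRHL motif AACCGGTT, the E2F motif TTTCCCGC and the longer NF-kB, interferon response and heat shock elements were found in 4.84% of serpin promoters or fewer. The first match of each gene is printed with its flanks, on the + strand of chromosome 1, with the AP-1 letters in capitals.
Serpinb5 (chr1:106861015-106861061): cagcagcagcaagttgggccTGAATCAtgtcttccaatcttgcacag
Serpinb12 (chr1:106934384-106934430): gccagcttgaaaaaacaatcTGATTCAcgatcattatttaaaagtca
Serpinb11 (chr1:107362113-107362159): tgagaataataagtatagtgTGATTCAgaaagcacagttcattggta
Serpinb7 (chr1:107422624-107422670): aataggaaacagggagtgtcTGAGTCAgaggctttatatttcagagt
Serpinb2 (chr1:107511309-107511355): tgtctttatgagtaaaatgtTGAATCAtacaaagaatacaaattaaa
Serpinb10 (chr1:107528929-107528975): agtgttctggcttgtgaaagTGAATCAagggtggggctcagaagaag
Serpinb8 (chr1:107589963-107590009): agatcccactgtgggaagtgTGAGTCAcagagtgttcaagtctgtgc
The matches begin from 181 bases (Serpinb11) to 23 bases (Serpinb8) before a start site, at 45 bases in both Serpinb12 and Serpinb7. Of these 7 genes, 5 were called higher in RANK+ than in CCL21+ (15.4% of all genes), Serpinb2 and Serpinb7 among them losing the call without RANK+ replicate 1. Serpinb8 averaged 0.773 ± 0.31 RPKM in RANK+, under the RPKM threshold, with its 3 libraries above the other 5, while Serpinb5 with the same element was highest in CCL21+, a difference that did not pass. Serpinb3c was called without a match. A match of letters is not evidence of binding.

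On chromosome 13, 4 of 15 clade B genes were called higher in RANK+ than in CCL21+ TECs (15.4% of all genes), and 3 of these were expressed in every library. Serpinb1a, an inhibitor of neutrophil proteases, was at 9.69, 3.13 and 4.36 RPKM in CCL21+, 44.3, 9.76 and 13.7 RPKM in RANK+, and 0.805 and 0.934 RPKM in double-negative TECs. Replicate 1 was the highest in both reporter-positive populations, and the call against CCL21+ (-1.82 ± 0.54, adjusted p = 0.0169) was lost without RANK+ replicate 1 (-0.96, adjusted p = 0.0662) or without CCL21+ replicate 2 or 3 (adjusted p = 0.0655 and 0.0614, edgeR). Serpinb6b was at 6.13, 2.82 and 3.53 RPKM in CCL21+, 24.4, 11.7 and 14.8 RPKM in RANK+, and 1.11 and 1.40 RPKM in double-negative TECs, in 3 separate groups (-1.89 ± 0.31 for CCL21+ over RANK+, adjusted p = 0.000638). Serpinb9, the inhibitor of granzyme B that protects cells from their own killing machinery, was at 5.51, 3.55 and 4.77 RPKM in CCL21+, 14.2, 9.06 and 9.73 RPKM in RANK+, and 3.13 and 3.72 RPKM in double-negative TECs. Only RANK+ stood apart for Serpinb9 (-1.13 ± 0.18, adjusted p = 0.000522), and the RANK-negative populations overlapped. Serpinb9b, the fourth, had at most 0.0177 RPKM outside RANK+ and was at 1.86, 0.649 and 0.517 RPKM within it. The call of Serpinb9b was lost without RANK+ replicate 1, with replicates 2 and 3 under the RPKM threshold but far above the other populations.

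Serpinb6a, the most abundant clade B serpin of the RANK-negative populations, varied little across the libraries. It was at 14.4, 12.5 and 15.3 RPKM in CCL21+, 15.4, 13.0 and 13.5 RPKM in RANK+, and 10.9 and 11.9 RPKM in double-negative TECs. CCL21+ and RANK+ overlapped, and their difference of 0.13 ± 0.08 did not pass (adjusted p = 0.222, edgeR). Both double-negative libraries lay below the other 6, with a difference of 0.30 ± 0.10 for CCL21+ over double-negative that did not pass either (adjusted p = 0.0747, edgeR). Its paralogue Serpinb6c did not exceed 0.816 RPKM in any library.

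**Figure D4:**
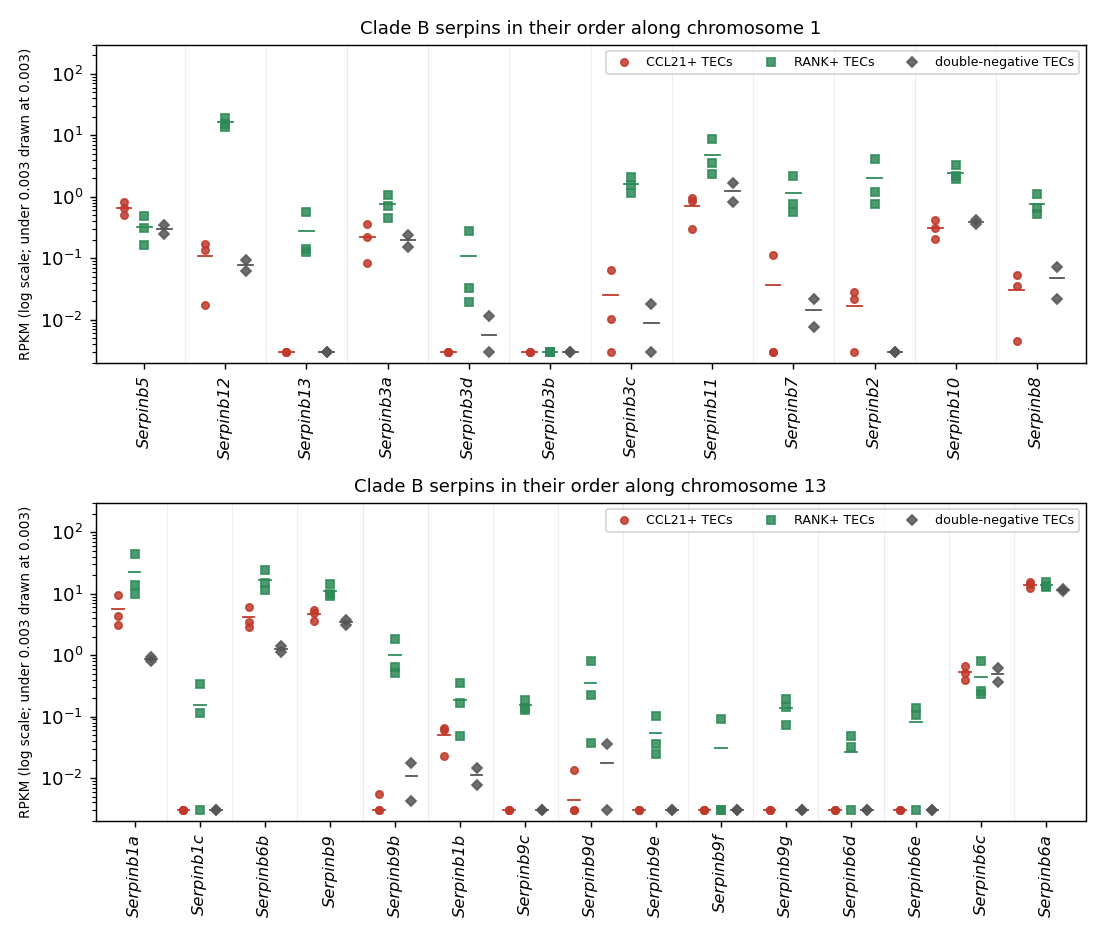
RPKM (log scale, values under 0.003 drawn at 0.003) of the clade B serpins in gene order on chromosome 1 (upper panel, 12 genes) and chromosome 13 (lower panel, 15 genes), 1 point per library as circles (CCL21+), squares (RANK+) and diamonds (double-negative), with a dash at each mean. Serpinb12 has its squares between 13.9 and 19.3 with the other points at 0.168 or lower, whereas the points of Serpinb6a lie together.

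Kallikreins were highest in RANK+ TECs. All 26 genes lie in 1 block of chromosome 7 (chr7:43690418-44229618, GRCm38), and their summed level was 88.2, 26.2 and 39.4 RPKM in RANK+, 1.89, 0.958 and 1.78 RPKM in CCL21+, and 1.61 and 5.77 RPKM in double-negative TECs. Over 3 counts were found for 26, 23 and 23 of them in RANK+ and for 1 to 7 elsewhere. Of the 23 tested, 13 were called higher in RANK+ than in CCL21+ (15.4% of all genes) and 12 higher than in double-negative (14.4%). At the adjusted p alone these numbers were 21 (30.6% of all genes) and 18 (27.0%). None was called higher in CCL21+ than in RANK+ in edgeR or DESeq2, and none had an unadjusted p under 0.05 in that direction. Those called ran along the whole block from Klk14 at one end to Klk1 at the other.

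Klk4, the protease that clears the matrix of maturing tooth enamel, was the most abundant, with 26.0% of the summed kallikrein RPKM in RANK+ TECs. It was at 0.0402, 0.0174 and 0.0145 RPKM in CCL21+, 19.3, 9.44 and 11.3 RPKM in RANK+, and 0.0712 and 0 RPKM in double-negative TECs. In counts this was 3, 1 and 1 against 1380, 591 and 604, and the groups did not overlap. The log2 fold change was -8.84 ± 0.69 for CCL21+ over RANK+ (adjusted p = 5.66e-06, edgeR), and its call held without RANK+ replicate 1. Klk14, which cleaves the junctions between cells of the horny layer of skin, was at 0, 0.0342 and 0.157 RPKM in CCL21+, 11.5, 2.38 and 5.34 RPKM in RANK+, and 0.222 and 0.110 RPKM in double-negative TECs. It differed by -6.49 ± 0.95 (adjusted p = 0.000335), with each RANK+ library above all others.

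Klk7 and Klk5, the partners of Klk14 in skin shedding, were at 6.41, 1.78 and 2.73 RPKM and at 2.95, 1.15 and 0.700 RPKM in RANK+, and neither passed 0.0235 RPKM in any other library. Klk1, the tissue kallikrein that releases kinins, had no counts in CCL21+ and 413, 56 and 57 counts in RANK+, at least 188-fold higher over a floor of 3 counts in the 3 CCL21+ libraries together. On the same floor, Klk6, a protease known from the nervous system, was at least 144-fold and Klk1b11 at least 103-fold higher. Without RANK+ replicate 1 these bounds were 65.2-fold for Klk1, 86.0-fold for Klk6 and 65.2-fold for Klk1b11. The Klk1b genes, a mouse expansion of Klk1 expressed in salivary glands, were called higher in RANK+ than in CCL21+ TECs for 6 of 13 members (15.4% of all genes), led by Klk1b9 at 6.02, 1.08 and 2.29 RPKM in RANK+ TECs. They have similar sequences, and reads could be split among them, although no tested kallikrein had a count that was not whole.

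Replicate 1 weighed more on kallikreins than on other genes. It was the highest RANK+ library for 24 of 26, and the median ratio of replicate 1 to replicate 2 was 3.88 over the 23 kallikreins with over 3 counts in replicate 2, against 1.1 over all genes. Without replicate 1, calls against CCL21+ were kept by Klk1, Klk14, Klk1b11, Klk1b9, Klk4, Klk6 and Klk7, and lost by Klk13, Klk1b1, Klk1b22, Klk1b3, Klk1b8 and Klk5. The 6 that lost it still passed the test (adjusted p = 0.00147 to 0.0049, edgeR) and fell under the RPKM threshold. Against double-negative TECs, the calls of Klk1 (3.81, adjusted p = 0.061, edgeR), Klk1b1, Klk1b22, Klk1b3, Klk1b8 and Klk5 were lost. Myeloid markers moved in the same direction, at 82.4 RPKM in replicate 1 and 23.4 RPKM in replicate 2, as given above, and their part in the kallikrein levels was not tested.

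Klk8 and Klk10 were among the exceptions of the block. Klk8 (neuropsin) was at 1.60, 0.833 and 1.25 RPKM in CCL21+, 2.38, 2.40 and 1.63 RPKM in RANK+, and 1.20 and 1.39 RPKM in double-negative TECs. It was present everywhere, made up 79.6% of the summed kallikrein RPKM in CCL21+, and its difference of -0.69 ± 0.34 between CCL21+ and RANK+ did not pass (adjusted p = 0.116, edgeR). It passed in DESeq2 (-0.78, adjusted p = 0.0483) and with at least 10 counts in every library (-0.82, adjusted p = 0.0404, edgeR). Klk10 was at 0.110, 0.0158 and 0.317 RPKM in CCL21+, 2.85, 0.305 and 1.65 RPKM in RANK+, and 0 and 3.42 RPKM in double-negative TECs. Here double-negative replicate 2 held the highest value of all, with 336 counts against 0 in replicate 1. Its difference of -3.30 ± 1.52 between CCL21+ and RANK+ did not pass (adjusted p = 0.093, edgeR), but passed at -3.30 to -3.37 without a filter on low counts, in a fit of these libraries alone and without either double-negative library (adjusted p = 0.0146 to 0.0241). Nearby Klk13 and Klk11 were also higher in replicate 2 than in replicate 1 of double-negative, at 0.474 against 0.0387 RPKM and 0.133 against 0.0101 RPKM.

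**Figure D5:**
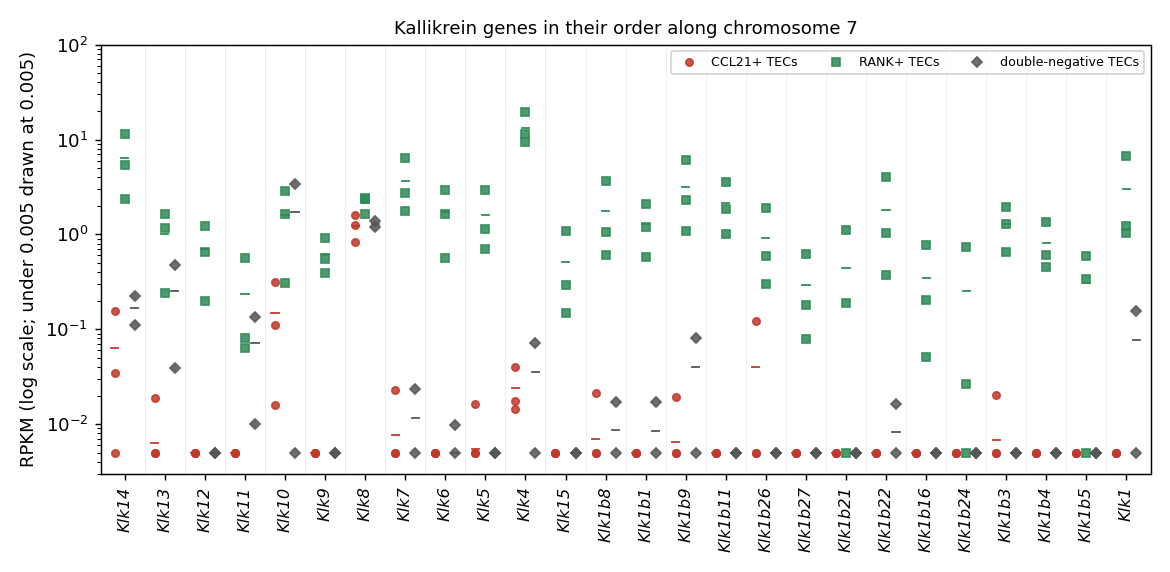
RPKM (log scale, values under 0.005 drawn at 0.005) of the 26 kallikreins in gene order along chromosome 7, 1 point per library as circles (CCL21+), squares (RANK+) and diamonds (double-negative), with a dash at each mean. Squares lie above the other points along most of the block, the points of Klk8 lie together, and the highest point of Klk10 is a double-negative library at 3.42.

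Spink proteins were scarce except in 1 case. Spink8, on chromosome 9, was at 27.0, 10.4 and 5.94 RPKM in CCL21+, 0.234, 0 and 0.142 RPKM in RANK+, and 0.307 and 0.255 RPKM in double-negative TECs. All CCL21+ libraries were far above the rest, by 6.94 ± 0.86 over RANK+ on the log2 scale, the difference on which the family was selected, and by 5.68 ± 0.93 over double-negative TECs (adjusted p = 0.00444, edgeR). Within CCL21+ it was highest in replicate 1, the library richest in parathyroid markers: Pth was at 3001, 848 and 906 RPKM and Gcm2 at 12.0, 4.05 and 5.05 RPKM in the same 3 libraries. Without that library the differences were 6.14 and 4.87. The call against double-negative TECs was lost without double-negative replicate 2 (5.48, adjusted p = 0.063, edgeR) and was at an adjusted p of 0.0478 without replicate 1. The part of parathyroid cells in the level of Spink8 was not tested. Pth was at 1.89 RPKM or less in RANK+ and at 12.4 and 8.85 RPKM in double-negative TECs.

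Spink5, the kallikrein inhibitor of skin, was at 0.00350, 0.209 and 0.0569 RPKM in CCL21+, 3.08, 0.463 and 0.611 RPKM in RANK+, and 0.0589 and 0.105 RPKM in double-negative TECs. Its RANK+ libraries lay above the others (-3.76 ± 1.09, adjusted p = 0.0152), but the call was lost without replicate 1 of RANK+ (-2.47, adjusted p = 0.0721, edgeR) and without replicate 3 of CCL21+ (-3.47, adjusted p = 0.0543). Spink1, the trypsin inhibitor of the pancreas, had 56, 0 and 23 counts in RANK+ and at most 3 elsewhere. None of the other 9 Spinks averaged over 1 RPKM in any population.

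Lists of genes that work with these families were read beside them. Of 40 serine proteases that serpins and Spinks can inhibit or that resemble their targets, 10 were called higher in RANK+ than in CCL21+ (15.4% of all genes) and 1 lower. All 10 were highest in RANK+ replicate 1 among the RANK+ libraries. In RANK+ replicates 2 and 3, Tmprss2, Tpsb2, Prss22 and Prss2 were at 0.582 and 1.01, 0.676 and 1.2, 0.708 and 0.406, and 0.93 and 0.0287 RPKM, against a threshold of 1 RPKM for a mean. Of the 35 tested, 12 had at most 3 counts in every library outside RANK+ and passed the filter through that population alone, so their median log2 fold change of -4.98 is a description. Ctrb1 was at 0.0191, 0.0248 and 0.0207 RPKM in CCL21+, 11.8, 2.66 and 1.39 RPKM in RANK+, and 0 in both double-negative libraries (-7.63 ± 1.05 for CCL21+ over RANK+, adjusted p = 0.00035, edgeR). The membrane protease Tmprss4 was at 0.680, 1.44 and 1.16 RPKM in CCL21+, 53.5, 27.3 and 33.4 RPKM in RANK+, and 1.41 and 1.14 RPKM in double-negative TECs (-4.98 ± 0.33, adjusted p = 2.49e-06). St14 (matriptase) averaged 26.0 ± 5.39 RPKM in RANK+ against 8.26 ± 2.92 in CCL21+ TECs (-1.52 ± 0.23, adjusted p = 0.000366). Plau, the urokinase that Serpine2 and Serpinb2 inhibit, was the exception, at 56.8, 43.9 and 46.0 RPKM in CCL21+, 11.5, 11.7 and 6.83 RPKM in RANK+, and 29.7 and 39.3 RPKM in double-negative TECs (2.40 ± 0.21 for CCL21+ over RANK+, adjusted p = 1.08e-05). Gzmb, the target of Serpinb9, was at 6.55, 1.99 and 1.86 RPKM in RANK+ and at most 0.139 RPKM elsewhere.

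Inhibitors of other families went both ways. Of 34 listed, 7 were called higher in RANK+ than in CCL21+ and 5 lower (15.4% of all genes each way), with a median log2 fold change of -1.83 over the 26 tested against -0.11 over all genes. The higher ones were Slpi, an inhibitor of neutrophil elastase, with Wfdc2, Wfdc18, Wfdc21, Cst6, Ambp and Spock1. Within RANK+, all 7 were highest in replicate 1. In RANK+, Slpi was at 9.59, 1.15 and 1.98 RPKM and Wfdc18 at 20.3, 5.28 and 4.95 RPKM. Ambp was at 2.01, 0.0849 and 0.93 RPKM, over the RPKM threshold in replicate 1 alone. The lower ones were Cstb, Cst3, Timp2, Spint1 and Spock2. Cstb, the cytosolic inhibitor of cathepsins, averaged 588 ± 62.4 RPKM in CCL21+, 93.9 ± 13.1 in RANK+ and 652 ± 23.1 in double-negative TECs (2.77 ± 0.13 for CCL21+ over RANK+, adjusted p = 4.61e-07), an order shared with Serpinh1 and Serpinf1.

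Receptors for proteases and their products were called in both directions. Of 10 listed and 9 tested, 3 were called higher in RANK+ and 3 higher in CCL21+ TECs (15.4% of all genes each way). F2rl1, the receptor that trypsin-like proteases and several kallikreins cleave, was at 11.9, 6.01 and 6.08 RPKM in CCL21+, 42.4, 44.3 and 42.5 RPKM in RANK+, and 3.00 and 3.72 RPKM in double-negative TECs (-2.31 ± 0.25, adjusted p = 4.46e-05). F2r, the thrombin receptor, was at 19.1, 16.8 and 18.8 RPKM, 3.57, 4.97 and 3.34 RPKM, and 13.2 and 15.6 RPKM in the same order (2.31 ± 0.17, adjusted p = 3.99e-06). Lrp1, which takes up serpin-protease complexes, averaged 15.7 ± 2.25 RPKM in CCL21+ and 3.95 ± 0.923 in RANK+ TECs (2.12 ± 0.19, adjusted p = 1.16e-05). Unlike the kallikreins, F2rl1 was no higher in RANK+ replicate 1 than in the other 2 libraries. The remaining calls were Procr and Bdkrb1, higher in RANK+, and Thbd, higher in CCL21+ TECs.

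Genes of cornified epithelium, the layer of skin in which kallikreins and Spink5 act, were called higher in RANK+ than in CCL21+ for 12 of the 21 tested of 23 (15.4% of all genes) and lower for 1, Sprr2a1. Of the 21, 3 had at most 3 counts in every library outside RANK+ and passed the filter through that population alone. Against double-negative TECs, 16 of 21 were called higher in RANK+ (14.4% of all genes) and 4 higher in CCL21+ (4.35% of all genes), namely Klf4, Grhl1, Tgm1 and Sprr2a1. Dsg1a, a desmosomal cadherin that is a kallikrein substrate, was at 1.17, 0.693 and 0.672 RPKM in CCL21+, 49.9, 42.8 and 38.7 RPKM in RANK+, and 0.295 and 0.0684 RPKM in double-negative TECs (-5.56 ± 0.43, adjusted p = 5.56e-06). Krt77 averaged 15.3 ± 9.69 RPKM in RANK+ against 0.0172 ± 0.0128 in CCL21+ TECs, and the loricrin gene Lor 1.14 ± 1.12 against 0.119 ± 0.103 RPKM. Lor was at 2.43, 0.37 and 0.631 RPKM in RANK+, over the RPKM threshold in replicate 1 alone. As a whole the list summed to 167, 91.1 and 95.1 RPKM in RANK+, 28.8, 22.5 and 21.4 RPKM in CCL21+, and 8.11 and 8.26 RPKM in double-negative TECs, again with RANK+ replicate 1 on top.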

How the data were processed

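RNA-sequencing was analysed for 8 libraries of sorted E17 TECs. The authors deposited expected counts in a single RSEM table. RSEM divides reads that match several genes. Per the labels, bcl2fastq 2.20, Trimmomatic, STAR 2.5.1 and RSEM 1.3.1 were used with mm10 and a NEBNext Ultra II Directional kit, whereas the study's methods name CLC Genomics Workbench and a TruSeq Stranded Total RNA kit, and this difference could not be resolved here. Both kits keep the strand. All 55450 gene identifiers matched GENCODE M21 of GRCm38, which gave exon lengths.

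Members were found by symbol (Serpin, Spink, Klk). The members and gene lists were chosen with earlier results of these data known, and the lists follow textbook roles. Expected counts were rounded and fitted in edgeR 4.0.16 (R 4.3.3) by quasi-likelihood after TMM scaling and filtering by expression at default settings, with p-values adjusted by Benjamini and Hochberg, in 1 model of all 8 libraries with 3 group means. The common biological coefficient of variation was 0.326. A call needed an adjusted p under 0.05, a fold over 1.5 and a mean over 1 RPKM in the higher population. RPKM used the library total and the summed exon length. The leading members were those called with a mean of at least 5 RPKM, with the most abundant of each family, and other members were named for their call class. The floor was set at 3 counts. Read counts are not molecules, so floors cover counting error only. Of the members, 36 share at least 1 window of 100 bases with another gene and 10 share over 10% of their windows. These 10 are the Serpina1 copies Serpina1a to Serpina1e, Serpina11, Serpinb9c, Serpinb9e, Serpinb9f and Serpinb9g, whose levels are uncertain. Alternatives were other scalings, DESeq2 1.42.0, other filters and thresholds, a replicate block, each library left out, and, added after seeing the data, a fit without Gm26917 and Gm42418, noncoding genes that took 6.89 to 19.4% and 1.47 to 10.7% of counts. The code was tested on simulated data. Figures were drawn with matplotlib 3.10.9.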

Additional observations from a re-analysis of the deposited data

How the results depend on the processing

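Counts of members called moved with the thresholds on level. At the adjusted p alone, 53 members were higher in RANK+ than in CCL21+ (30.6% of all genes), 50 higher than in double-negative (27.0%), and 1 higher in double-negative than in CCL21+ (5.15%). With a threshold of 5 RPKM these counts for RANK+ were 8 (7.45% of all genes) and 10 (6.67%), and 5 members were higher in CCL21+ than in double-negative (2.49%). With at least 10 counts in every library, which left 22 members to test, they were 10 and 13, while of all genes 19.3% and 18.4% were called. Without a filter on low counts, and in a fit of the libraries compared alone, 1 member, Serpinf1, was higher in double-negative than in CCL21+. With each CCL21+ or RANK+ library left out in turn, the members called ranged from 5 to 6 (higher in CCL21+) and 18 to 32 (higher in RANK+) for that pair. They ranged from 8 to 9 and 0 to 1 for CCL21+ against double-negative, and from 19 to 34 and 3 to 3 for RANK+ against double-negative. In the same order, the shares of all genes called were 14.6 to 15.8% and 14.7 to 16.1%, 3.28 to 5.36% and 2.48 to 4.79%, and 13.5 to 15.3% and 14.2 to 15.9%. The low ends of 18 and 19 were without RANK+ replicate 1 (14.7% and 13.5% of all genes). Without either double-negative library, the lone library was assumed to vary like the others. Fewer members, and a smaller share of all genes, were then called higher in CCL21+ or RANK+ than in double-negative. Without 1 double-negative library, Serpina3n, Serpinb1a, Serpinb6b, Serping1 and Spink8 lost their calls over double-negative in CCL21+, and Klk1, Klk1b22, Serpina3n, Serpinb11, Serpinb7 and Spink5 theirs in RANK+. Without RANK+ replicate 1, calls over double-negative in RANK+ were also lost by Serpina12, Serpina3n, Serpinb11, Serpinb2, Serpinb7, Serpinb9b and Spink5. Serpinb1a lost its call over double-negative in CCL21+ without CCL21+ replicate 1 (2.1, adjusted p = 0.0708, edgeR). Serping1 lost the same call without any 1 of the CCL21+ libraries (adjusted p = 0.0859 to 0.0946, edgeR). It was also lost without RANK+ replicate 3 (2.14, adjusted p = 0.0708). Serpina3h passed for CCL21+ over RANK+ without RANK+ replicate 2 (0.62, adjusted p = 0.0353, edgeR). The cause of these shifts was not tested.

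Directions turned for members that were not called with all libraries. With 1 library left out, the log2 fold change of Klk10 ranged from -4.56 to 6.47 for CCL21+ over double-negative TECs and from -1.18 to 9.78 for RANK+ over double-negative TECs, with the upper ends without double-negative replicate 2 (adjusted p = 0.305 and 0.0253, edgeR), and was 0.31 without RANK+ replicate 2. For CCL21+ over double-negative TECs, Klk4 ranged from -1.54 to 3.92 (without double-negative replicate 1), Klk8 from -0.32 to 0.10 (without CCL21+ replicate 2) and Spink5 from -1.49 (without CCL21+ replicate 2) to 0.75, with -0.14 without double-negative replicate 1. Serpinb6a was at -0.01 for CCL21+ over RANK+ with at least 10 counts in every library. Scaling by DESeq2 size factors moved the median log2 fold change of all genes from -0.11 to -0.20 and from 0.06 to 0.20 in the comparisons with RANK+, and members called there were 6 and 30 (13.7% and 16.5% of all genes), and 32 and 3 (15.9% and 12.3%).

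Whether replicate numbers shared between populations mark pairs is not stated. Deviations from the population means correlated between the CCL21+ and RANK+ libraries of 1 number at 0.126, 0.0485 and 0.0707, above their pairs of unlike number (-0.0984 to 0.041). With the double-negative libraries, however, pairs of like number correlated at -0.117 to -0.0411. With n = 2, the deviations of these libraries mirror each other, so correlations with replicates 1 and 2 differ in sign alone. They therefore carry little weight, and whether the numbers mark pairs stayed undecided. The main fit did not treat them as pairs. With a replicate block, members called were 6 and 30 (15.5% and 15.4% of all genes), 8 and 0 (4.8% and 4.12%), and 31 and 3 (14.2% and 15.3%) in the 3 comparisons, Klk8 was at 0.01 for CCL21+ over double-negative, and Serping1 lost its calls (adjusted p = 0.0552 and 0.0878, edgeR).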

Other observations

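Within double-negative TECs, replicate 2 held 5.77 RPKM of kallikreins in sum against 1.61 RPKM in replicate 1, with over 3 counts for 7 and 4 of 26 genes. Klk10 accounted for 3.42 RPKM of the former. Myeloid markers were at 0.491 and 0.63 RPKM and fibroblast markers at 2.65 and 4.64 RPKM in the same pair of libraries, lower in replicate 2, whereas B cell markers were at 0.429 RPKM in replicate 2 and 0.145 RPKM in replicate 1.

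Wfdc2, an inhibitor-like protein of secretory epithelia, was, of the 34 listed protease inhibitors outside the 3 families, the 1 called lower in CCL21+ than in both other populations. It was at 9.45, 8.66 and 6.92 RPKM in CCL21+, 24.1, 16.3 and 17.9 RPKM in RANK+, and 15.9 and 22.1 RPKM in double-negative TECs. The CCL21+ libraries lay below the other 5.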
